A study of Homo sapiens with 12 samples.

Results

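The DEL cell line was set against 2 other anaplastic large cell lymphoma (ALCL) lines, Karpas299 and SUPM2, and the genes that mark it off were described. The study sorted cultured ALCL cells by their exclusion of the DNA dye Hoechst into a side population (SP), which pumps the dye out, and a main population (MP), which keeps it, and profiled both on Affymetrix arrays. DEL supplied 2 of the 12 arrays, 1 of SP and 1 of MP cells. The comparison group held 4 arrays, 1 of each population from Karpas299 and from SUPM2, and the 6 arrays of SUDHL-1 were not used. DEL, Karpas299 and SUPM2 are established human lines that carry the fusion of NPM1 with the receptor tyrosine kinase gene ALK. No drug or introduced genetic change separated the groups, but the lines come from different patients and so differ in genotype. All cells had been grown to log phase in RPMI medium with fetal calf serum before staining and sorting. Each line is 1 tumour's descendants, and each line and population had 1 array. The labels do not say that SP and MP arrays of a line came from separate cultures, so the spread within a line may be technical. The p-values here reflect sample-to-sample spread alone. In the comparison with both lines, that spread also holds the difference between Karpas299 and SUPM2, and the 2 arrays of a line count as separate samples. The number of arrays limits the precision of every value.

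ALCL is a tumour of mature T cells that often has lost much of the T-cell receptor and its CD3 chains while keeping cytotoxic granule proteins and the surface receptor CD30 (gene TNFRSF8). In lines with the NPM1-ALK fusion, the kinase drives STAT3 and AP-1 signalling, and genes of these pathways are a known part of the ALCL programme. Lines from different patients share this programme and differ in the rest of their expression, which gives each line an identity of its own.

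Expression is given as log2 signal, where a difference of 1 is a doubling, and signals are compared between arrays for 1 gene and never between genes. Of 18417 named genes, both DEL arrays lay above all 4 other arrays for 1756 (9.53% of genes) and below them for 2483 (13.5%). The distance between the nearest DEL value and the nearest other value, here called the gap, was at least 1 for 142 genes above and 48 below. It was at least 2 for 46 genes above and 12 below. A linear model with population as covariate (limma, Benjamini-Hochberg adjustment over all genes, threshold 0.05) called 50 genes higher in DEL (0.271%) and 5 lower (0.0271%). All 55 lay outside the range of the other arrays. At an unadjusted p under 0.05, 939 genes were higher and 625 lower. The count of calls rested on all 6 arrays: it was 0 in both directions without DEL SP, DEL MP, Karpas299 SP or SUPM2 SP, 6 higher and 0 lower without Karpas299 MP, and 14 higher and 1 lower without SUPM2 MP. With each line averaged to 1 value (1 line against 2), limma called 0 genes, with 432 higher and 189 lower at an unadjusted p under 0.05.

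The lines could be told apart by their whole profiles. The SP and MP arrays of 1 line correlated at 0.963 to 0.982 over genes, DEL and Karpas299 at 0.946 to 0.952, DEL and SUPM2 at 0.927 to 0.938, and Karpas299 and SUPM2 at 0.923 to 0.928. These coefficients describe 6 arrays over the same genes and were not tested. Between 1624 and 1827 genes stood at least 2-fold apart in the array pairs of DEL and Karpas299, between 2145 and 2471 in those of DEL and SUPM2, and between 446 and 1211 in the pairs within a line. Fitted against 1 line at a time, DEL had 255 genes called higher (1.38%) and 203 lower (1.1%) than Karpas299. Against SUPM2 it had 599 called higher (3.25%) and 271 lower (1.47%). Both contrasts use the same DEL arrays, and their error comes from the spread within lines alone. The medians of the 6 arrays over named genes lay between 5.76 and 5.8.

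**Figure D1:**
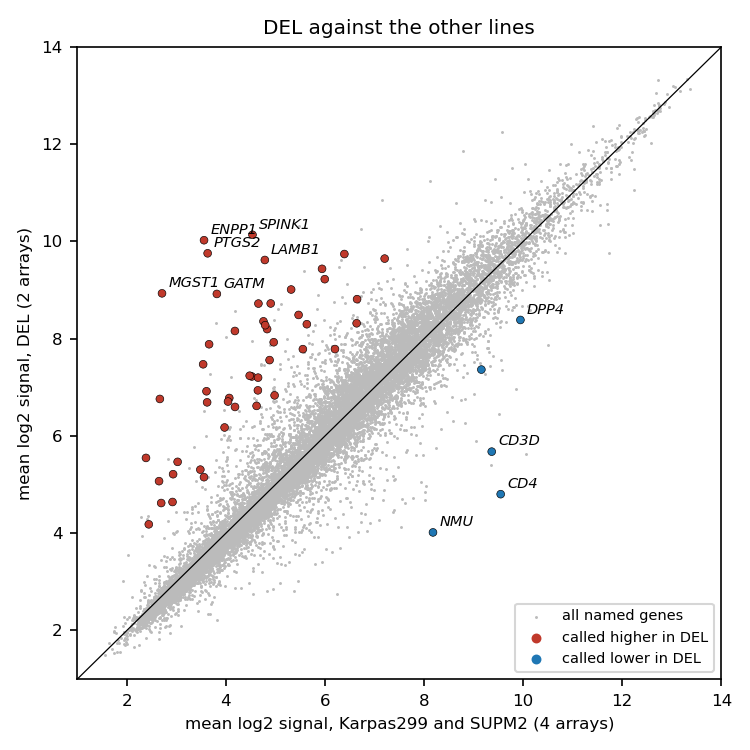
Mean log2 signal of the 2 DEL arrays (vertical axis) against that of the 4 Karpas299 and SUPM2 arrays (horizontal axis), 1 point per gene, with genes called higher in red and lower in blue. Most red points stand over the left part of the horizontal axis, with ENPP1 at 10.03 in DEL against 3.56 in the other lines, and CD4 and CD3D lie far below the diagonal.

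The labels were checked against genes of the lineage. TNFRSF8, which encodes the CD30 receptor used to diagnose ALCL, stood at 8.66 in DEL SP and 8.86 in DEL MP, at 9.05 and 10.51 in Karpas299, and at 7.72 and 7.63 in SUPM2. DEL therefore lay between the other lines. PTPRC, the CD45 phosphatase of all white blood cells, was at 10.45 and 10.27 in DEL and 10.04 to 10.43 in the other lines. PRF1, the pore protein perforin, stood at 11.52 and 11.59 in DEL against 10.79 to 11.73. NPM1, the nucleolar protein gene that forms the fusion's other partner, lay within 12.03 to 12.29 on all 6 arrays. ALK itself was not analysed here. CD3E, a chain of the CD3 complex that T cells need to display the receptor, stood at 4.26 to 4.76 on all 6 arrays, and the constant region gene TRBC1 at 4.65 to 4.92. CD8A stood at 4.65 to 4.94. CD3E, TRBC1 and CD8A were thus dim on all 6 arrays, so they could hardly separate DEL from the other lines. CD4 and CD3D, which were bright in Karpas299 and SUPM2, did separate DEL and are described below.

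Genes called higher in DEL were mostly dim in the other lines. Of the 50, 24 had a mean signal in Karpas299 and SUPM2 within the lowest 25% of genes (under 4.43) and 43 below the median gene. The difference was at least 2 for 40 genes, at least 3 for 23 and at least 4 for 9. They are taken up here by what they are known to do, a grouping made after their values were seen and not tested. With line as a random block, which treats the 2 arrays of a line as related, 30 of the 50 were called. IGFBP7 and ERAP2 missed the threshold in that fit. For AOAH, NLRP3, SNAI2, ZNF670, ZNF124 and several other calls its result was not read singly.

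ENPP1, a membrane enzyme that hydrolyses extracellular nucleotides, had the widest gap. It stood at 10.02 in DEL SP and 10.04 in DEL MP, against 3.66 and 3.44 in Karpas299 and 3.25 and 3.89 in SUPM2. Both DEL arrays were bright and the other 4 dim, a difference of 6.47 (SE 0.22, adjusted p = 0.00379, limma), or 88.5-fold. NT5E, the CD73 enzyme that turns AMP outside the cell into adenosine, stood at 7.45 and 7.50 in DEL, 3.55 and 3.71 in Karpas299 and 3.23 and 3.67 in SUPM2. It was 3.93 higher (SE 0.17, limma adjusted p = 0.00592), and the groups did not overlap. DPP4, the CD26 peptidase of activated T cells, differed the other way and is described with the genes called lower.

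MGST1, a membrane glutathione transferase that detoxifies reactive compounds, stood at 8.68 and 9.18 in DEL, at 2.65 and 2.61 in Karpas299 and at 2.81 and 2.76 in SUPM2. The difference of 6.22 (SE 0.19, limma adjusted p = 0.00379) was 74.7-fold. GATM, which makes the precursor of creatine, stood at 8.62 and 9.22 in DEL, 3.60 and 3.64 in Karpas299 and 3.85 and 4.18 in SUPM2, a difference of 5.10 (SE 0.23, limma adjusted p = 0.00592). DDAH1, which degrades the methylarginines that inhibit nitric oxide synthases, stood at 7.88 and 8.44 in DEL and 3.79 to 4.60 in the other lines. It was 3.98 higher (limma adjusted p = 0.0217). PHGDH, the first enzyme of serine synthesis, stood at 8.53 and 8.45 in DEL, 5.76 and 5.67 in Karpas299 and 5.12 and 5.33 in SUPM2, 3.02 higher (limma adjusted p = 0.0264).

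PTGS2, the inducible cyclooxygenase that starts prostaglandin synthesis, stood at 10.06 in DEL SP and 9.45 in DEL MP, against 3.71 and 3.36 in Karpas299 and 3.67 and 3.79 in SUPM2. It was 6.13 higher in DEL (SE 0.21, limma adjusted p = 0.00379), or 69.8-fold, and bright in both sorted populations of that line alone. Because it is an inducible gene with one of the widest gaps, the 250 bases before its start are shown, from RefSeq (GRCh38.p14, minus strand, chr1:186680424-186680673), written 5′ to 3′. Capitals mark the match to TATAAA, the TATA box motif, searched on both strands (TTTATA on the other strand). This motif is present in the promoter entries of 13% of 27305 genes, and a match describes these letters only.
PTGS2: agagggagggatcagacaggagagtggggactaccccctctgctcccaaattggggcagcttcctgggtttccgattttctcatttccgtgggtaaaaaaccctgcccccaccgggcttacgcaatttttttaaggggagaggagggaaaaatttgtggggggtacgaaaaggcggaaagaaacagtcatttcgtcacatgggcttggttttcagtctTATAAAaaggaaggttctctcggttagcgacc

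SPINK1, a secreted trypsin inhibitor, stood at 10.25 and 10.03 in DEL, 4.04 and 4.30 in Karpas299 and 4.81 and 4.99 in SUPM2. It was 5.60 higher (SE 0.33, limma adjusted p = 0.0123). LBP, the plasma protein that hands bacterial lipopolysaccharide to its receptor, stood at 8.59 and 8.86 in DEL and 4.40 to 5.18 in the other lines, 4.07 higher (limma adjusted p = 0.0117). Both are secreted proteins better known from pancreas and liver, and both separated DEL from all 4 other arrays. IGFBP7, a secreted binding protein for insulin-like growth factors, stood at 9.66 and 9.21 in DEL, 6.23 and 6.19 in Karpas299 and 6.27 and 5.08 in SUPM2, 3.50 higher (limma adjusted p = 0.0423, and 0.0835 with line as a random block).

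CD163, the haptoglobin-haemoglobin scavenger receptor of macrophages, stood at 7.73 and 8.04 in DEL, 3.53 and 3.87 in Karpas299 and 4.02 and 3.22 in SUPM2. The difference was 4.23 (SE 0.28, limma adjusted p = 0.0195). NLRP3, the sensor protein of an inflammasome, stood at 7.20 on both DEL arrays and at 4.59 to 4.73 on the others, 2.55 higher (SE 0.15, limma adjusted p = 0.0123). AOAH, which inactivates lipopolysaccharide by removing its acyl chains, stood at 7.90 and 8.70 in DEL and 4.75 to 6.37 elsewhere. It was 2.67 higher (limma adjusted p = 0.0423, not read singly with line as a random block). With LBP, these genes act on bacterial products and macrophage functions, a grouping made after their values were seen.

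The list of myeloid markers was read beside CD163. Of its 18 measured genes, 4 lay above (22.2%, against 9.53% of all genes) and 3 below, 1 was called higher, and the median difference was -0.07 (all genes -0.06). The mean over the list was 5.51 and 5.88 in DEL, 4.98 and 5.19 in Karpas299 and 5.33 and 5.24 in SUPM2. Beside CD163, the members above were VCAN, CD68 and S100A8. VCAN stood at 9.14 and 9.83 in DEL against 5.55 to 8.03, and CD68 at 9.60 and 10.25 against 8.92 to 9.49. S100A8 was at 6.26 and 8.68 against 3.27 to 5.89. CD14 and CSF1R, which define monocytes and macrophages, lay inside the range of the other lines, and SPI1, the myeloid transcription factor PU.1, stood at 6.13 and 6.21 in DEL against 6.28 to 6.65. The part that other cells in the cultures could have in the CD163 signal was not tested. In bulk samples, fewer cells of a type and less RNA per cell cannot be told apart.

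Several of the calls encode proteins of adhesion, the matrix or the cell surface, again grouped after their values were seen. LAMB1, a chain of the basement membrane protein laminin, stood at 9.47 and 9.77 in DEL, 5.44 and 4.73 in Karpas299 and 4.62 and 4.35 in SUPM2, 4.83 higher (SE 0.33, limma adjusted p = 0.0198). DSG2, a desmosomal cadherin, stood at 6.60 and 6.92 in DEL and 2.45 to 2.84 in the other lines, 4.09 higher (limma adjusted p = 0.00592). CDCP1, a transmembrane substrate of SRC kinases, stood at 8.70 and 8.75 against 4.77 to 5.04, 3.82 higher (limma adjusted p = 0.00508). At DSG2 and CDCP1 the other 4 arrays lay close together, and DEL was the line apart. ITGB3, the beta-3 integrin subunit, stood at 6.23 and 6.12 in DEL and 3.87 to 4.09 elsewhere, 2.20 higher (limma adjusted p = 0.0173). SNAI2, a transcriptional repressor of epithelial cadherin, was 2.00 higher (limma adjusted p = 0.0423, not read singly with line as a random block).

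The remaining genes with the 15 widest gaps were SCARNA11, a small Cajal body RNA, at 8.24 and 8.32 in DEL against 4.62 to 4.98 (3.49 higher, limma adjusted p = 0.00592), and ATP1B1, the beta subunit of the sodium pump, at 8.50 and 7.90 against 4.77 to 4.90 (3.37 higher, limma adjusted p = 0.0123). In all 15 the groups were separated by more than the spread within either group, which follows from ranking called genes by their gap. Others called higher were EGLN3, an oxygen-sensing prolyl hydroxylase (2.23), CYBRD1, an iron reductase (2.76), SLC7A2, a transporter of basic amino acids (2.67), and TFPI, the tissue factor pathway inhibitor (2.42). Differences from 1.59 to 3.70 were found for the remaining named calls, NFE4, SEPTIN11, AHNAK2, OGFRL1, SPANXN3, CPXM1, NEK6, RAB15, PNPLA4, GALNT14, RASA3, AADAT, RHOBTB3, ZNF680, WDR17, SDR16C5, B4GALT6, SMTN, TBC1D9 and TLCD3A.

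**Figure D2:**
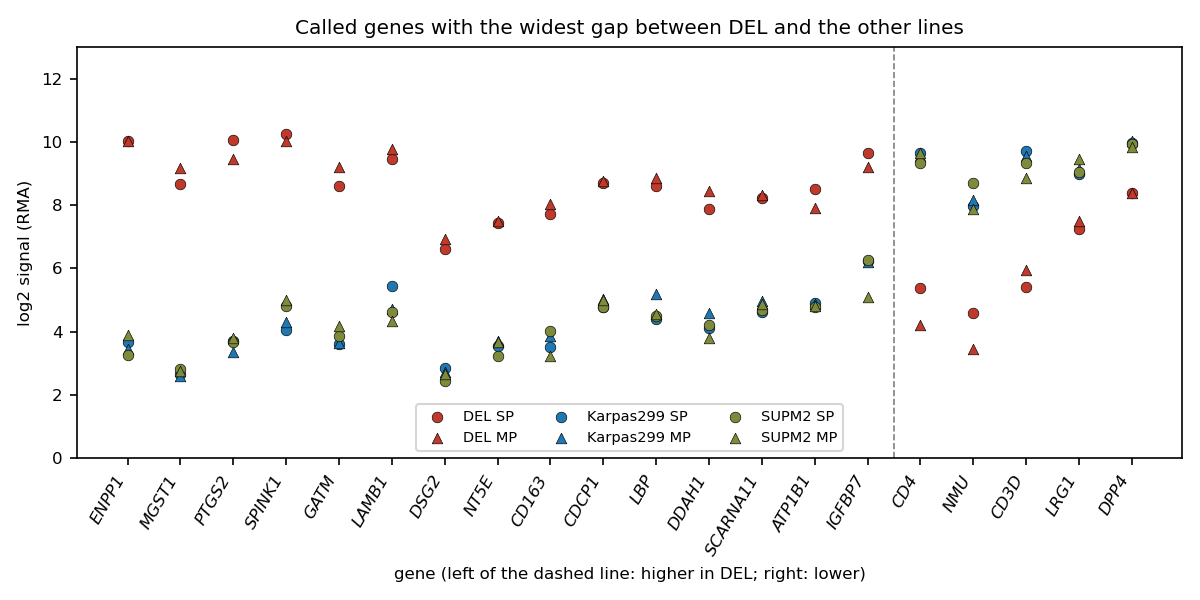
Log2 signal of the 15 called-higher genes with the widest gap and of the 5 called-lower genes (horizontal axis), 1 point per array, coloured by line, circles for SP and triangles for MP. For every gene shown the 2 DEL points are separated from the other 4, as for ENPP1 (10.02 and 10.04 against 3.25 to 3.89) and CD4 (5.39 and 4.22 against 9.32 to 9.66). The genes were chosen for this separation.

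CD4 and CD3D, proteins of the T-cell surface, were among the 5 genes called lower in DEL. CD4, the coreceptor of helper T cells, stood at 5.39 in DEL SP and 4.22 in DEL MP, against 9.65 and 9.56 in Karpas299 and 9.32 and 9.66 in SUPM2. It was dim in DEL and bright on the other 4 arrays, a difference of -4.74 (SE 0.33, limma adjusted p = 0.0204), or 26.8-fold. CD3D, the delta chain of the CD3 complex, stood at 5.42 and 5.94 in DEL, 9.71 and 9.55 in Karpas299 and 9.34 and 8.86 in SUPM2. It was lower by a difference of -3.69 (SE 0.31, limma adjusted p = 0.0316), again with no overlap. With line as a random block, the difference in CD3D did not pass the threshold (limma adjusted p = 0.0546).

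The other genes called lower were NMU, LRG1 and DPP4. NMU, the neuropeptide neuromedin U, stood at 4.59 and 3.45 in DEL, 7.98 and 8.15 in Karpas299 and 8.71 and 7.88 in SUPM2, a difference of -4.16 (SE 0.31, limma adjusted p = 0.0217). LRG1, a secreted leucine-rich glycoprotein, stood at 7.24 and 7.49 in DEL and 8.97 to 9.46 elsewhere, a difference of -1.79 (SE 0.16, limma adjusted p = 0.0422). DPP4 stood at 8.38 and 8.39 in DEL and 9.83 to 10.04 elsewhere, a difference of -1.56 (SE 0.15, limma adjusted p = 0.0448). These last 2 differences were small beside those of CD4, CD3D and NMU, and neither passed with line as a random block (limma adjusted p = 0.0818 for LRG1 and 0.0935 for DPP4). DPP4 also missed the threshold with the dimmest 25% of genes left out (limma adjusted p = 0.0654).

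The T-cell receptor list, which holds CD4 and CD3D themselves, was read for its other members. Of 26 measured genes, 8 lay below the other lines (30.8%, against 13.5% of all genes), CD4 and CD3D among them, and 1 above. The 2 called lower were CD4 and CD3D, so no other member was called (4 lower and 0 higher at an unadjusted p under 0.05, limma). CD247, the zeta chain that carries most of the receptor's signalling motifs, stood at 5.45 and 4.66 in DEL, 7.51 and 7.62 in Karpas299 and 8.50 and 8.11 in SUPM2. Both DEL arrays were lower than the other 4, by -2.88, but the difference missed the threshold (limma adjusted p = 0.0893). ZAP70, the kinase that binds the zeta chain, stood at 5.24 and 4.83 in DEL, 7.55 and 8.03 in Karpas299 and 5.33 and 6.17 in SUPM2 (limma adjusted p = 0.659). LAT, the adaptor downstream of ZAP70, was the member above the other lines, at 8.14 and 7.85 against 5.59 to 7.72 (adjusted p = 0.654). Other members grouped DEL with 1 line: CD2, an adhesion receptor, was at 4.42 and 4.38 in DEL, near Karpas299 (4.54 and 4.34) and far from SUPM2 (9.42 and 8.96). SIT1, an inhibitory adaptor, was at 3.99 and 4.08 in DEL, near SUPM2 (4.30 and 3.81) and far from Karpas299 (7.02 and 7.70). The list median was -0.30, against -0.06 for all genes, and was -0.18 without Karpas299 MP and -0.20 without Karpas299 SP. It was -0.24 against Karpas299 alone and -0.02 against SUPM2 alone, and 8 members were called lower against Karpas299 and 4 against SUPM2.

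Of 17 cytotoxic granule genes measured, 4 lay below (23.5%, against 13.5% of all genes) and 1 above, with a median of -0.25 and 11 members lower. None was called (1 lower at an unadjusted p under 0.05, limma). GZMB, the granule protease granzyme B, stood at 9.64 and 9.91 in DEL, 11.37 and 11.76 in Karpas299 and 12.10 and 11.68 in SUPM2, and its difference of -1.96 missed the threshold (limma adjusted p = 0.0935). Of 18 natural killer cell receptors and adaptors, 2 lay above (11.1%, against 9.53% of all genes) and 3 below (16.7%). No member was called (1 higher and 2 lower at an unadjusted p under 0.05, limma). Among 28 ALCL genes, 1 lay above (3.57%) and 6 below (21.4%). No member was called (2 higher and 3 lower at an unadjusted p under 0.05, limma). TMOD1, a capper of actin filaments found in ALK-positive ALCL, stood at 6.66 and 6.23 in DEL, 8.76 and 10.31 in Karpas299 and 9.48 and 9.47 in SUPM2 (-3.06, limma adjusted p = 0.0999). JUNB, an AP-1 protein driven by the fusion kinase, stood at 11.27 and 11.30 in DEL and 11.43 to 12.09 elsewhere (-0.48, limma adjusted p = 0.68). Of 28 JAK, STAT and feedback genes, 2 lay above (7.14%) and 5 below (17.9%).

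MHC class II molecules show peptides to helper T cells, and activated human T cells also carry them. Against the mean of the 2 other lines, all 12 measured genes of class II presentation were lower in DEL. This did not hold against each line: HLA-DQA1 was higher in DEL than in SUPM2, by 0.42. The list median was -1.50, against -0.06 for all genes, and 6 of the 12 lay below the other lines (50%, against 13.5% of all genes). The mean over the list was 7.49 and 7.06 in DEL, 9.29 and 9.35 in Karpas299 and 8.07 and 7.71 in SUPM2. None was called in the comparison with both lines (6 lower at an unadjusted p under 0.05, limma), while 7 were called lower against Karpas299 and 3 against SUPM2. HLA-DOA, which restrains peptide loading, stood at 6.78 and 6.74 in DEL, 8.51 and 9.46 in Karpas299 and 8.64 and 8.71 in SUPM2, a difference of -2.07 (limma adjusted p = 0.0997). HLA-DPB1, the beta chain of the DP molecule, stood at 8.71 and 8.48 in DEL, 10.16 and 10.94 in Karpas299 and 9.62 and 9.80 in SUPM2 (-1.54, limma adjusted p = 0.366). HLA-DMB, part of the peptide exchanger, stood at 8.13 and 7.50 in DEL, 9.62 and 8.95 in Karpas299 and 9.84 and 8.69 in SUPM2 (-1.46, limma adjusted p = 0.0872). For these genes DEL was the lowest line in both populations. HLA-DQA1 and HLA-DRB5 were instead bright in Karpas299 alone: HLA-DQA1 stood at 11.51 and 11.13 there, at 7.96 and 6.79 in DEL and at 6.99 and 6.93 in SUPM2. CIITA, the coactivator that switches the class II genes on, stood at 6.42 and 6.35 in DEL and 6.40 to 6.57 elsewhere (-0.11, limma adjusted p = 0.842). Class II HLA sequences are much alike, so probe sets may share signal and the value of any 1 HLA gene is uncertain. The list median was -0.56 without Karpas299, -0.87 without its SP array alone and -0.75 without its MP array alone. Of 17 class I presentation genes, 2 lay above (11.8%, against 9.53% of all genes) and 1 below (5.88%). ERAP2, which trims peptides for class I molecules, was called higher at 9.24 and 9.21 in DEL against 5.37 to 6.36 (3.23, SE 0.31, limma adjusted p = 0.044, and 0.0935 with line as a random block).

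Class II promoters are known for a shared block of motifs that ends in a CCAAT box, bound by the NF-Y factor. The class II genes were lower in DEL than the mean of the other lines, though not all were lower than SUPM2. For the 3 with the widest gaps among HLA genes, the 250 bases before the start are shown, from RefSeq (GRCh38.p14), 5′ to 3′ on the gene's strand. They are HLA-DOA (minus strand, chr6:33009592-33009841), HLA-DPB1 (plus strand, chr6:33075740-33075989) and HLA-DMB (minus strand, chr6:32941029-32941278). Capitals mark CCAAT or, for the other strand, ATTGG.
HLA-DOA: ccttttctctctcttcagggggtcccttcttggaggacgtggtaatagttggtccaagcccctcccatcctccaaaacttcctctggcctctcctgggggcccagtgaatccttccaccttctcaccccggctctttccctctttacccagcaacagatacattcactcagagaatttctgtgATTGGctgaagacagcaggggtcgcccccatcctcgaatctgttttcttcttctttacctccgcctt
HLA-DPB1: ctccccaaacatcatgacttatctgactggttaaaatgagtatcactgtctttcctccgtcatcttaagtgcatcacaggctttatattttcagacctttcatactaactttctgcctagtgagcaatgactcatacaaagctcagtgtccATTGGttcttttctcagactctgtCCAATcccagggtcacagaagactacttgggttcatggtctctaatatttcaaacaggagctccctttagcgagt
HLA-DMB: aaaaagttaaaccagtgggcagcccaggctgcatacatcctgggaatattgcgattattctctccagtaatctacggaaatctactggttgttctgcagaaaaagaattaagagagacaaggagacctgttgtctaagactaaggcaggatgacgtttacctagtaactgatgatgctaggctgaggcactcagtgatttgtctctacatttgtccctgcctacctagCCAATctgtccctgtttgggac

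HLA-DPB1 holds 2 matches and the others 1 each. A match was found for 8 of the 9 measured HLA class II genes, and in the promoter entries of 37% of 27305 genes. This short motif is common, and the matches describe the letters only.

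Interferon-stimulated genes were also lower in DEL for much of the list. Of 37 measured, 15 lay below the other lines (40.5%, against 13.5% of all genes) and 3 above, with a median of -0.45 (-0.24 without DEL MP). None was called (8 lower and 0 higher at an unadjusted p under 0.05, limma). The mean over the list was 6.27 and 6.25 in DEL and 6.63 to 6.74 in the other lines, so the 2 groups of arrays did not overlap. MX2, a GTPase that blocks retroviruses, stood at 4.51 and 4.96 in DEL, 7.24 and 7.30 in Karpas299 and 6.75 and 6.55 in SUPM2 (-2.22, limma adjusted p = 0.0999). TRIM22, an antiviral ubiquitin ligase, stood at 5.18 and 5.06 in DEL, 6.66 and 6.02 in Karpas299 and 8.69 and 8.31 in SUPM2. OAS1, which makes the messenger that activates RNase L, stood at 4.90 and 4.56 in DEL, 6.99 and 7.22 in Karpas299 and 5.74 and 5.81 in SUPM2. For both, DEL was lowest while Karpas299 and SUPM2 differed from each other, and the differences of -2.30 and -1.71 missed the threshold (limma adjusted p = 0.553 and 0.464). The interferon receptor genes IFNAR1 and IFNAR2 lay on the other side, at 8.39 and 8.29 against 7.14 to 8.06 and at 7.25 on both DEL arrays against 5.93 to 6.97. Neither was called (adjusted p = 0.643 and 0.556).

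**Figure D3:**
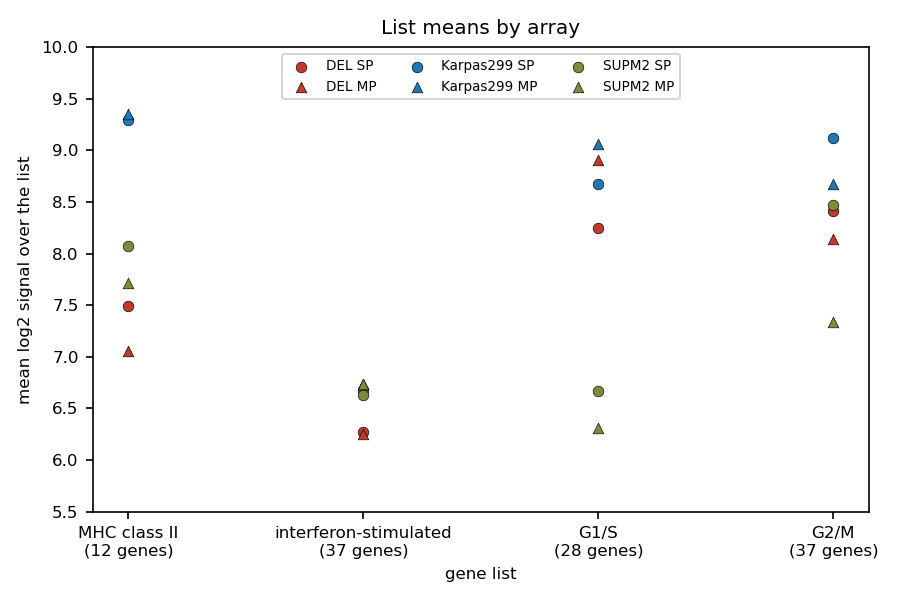
Mean log2 signal over 4 gene lists (horizontal axis) for each of the 6 arrays, coloured by line, circles for SP and triangles for MP. DEL has the lowest points for MHC class II genes (7.49 and 7.06) and interferon-stimulated genes (6.27 and 6.25), and lies above SUPM2 (6.67 and 6.31) for G1/S genes.

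Of 43 cytokine receptors measured, 10 lay above the other lines (23.3%, against 9.53% of all genes) and 4 below, with a median of 0.01, and 0 were called (8 higher and 2 lower at an unadjusted p under 0.05, limma). IL7R, the interleukin-7 receptor of resting T cells, stood at 7.72 and 8.19 in DEL, 6.36 and 5.62 in Karpas299 and 2.94 and 3.19 in SUPM2. Karpas299 and SUPM2 differed from each other by more than Karpas299 from DEL, and the difference of 3.43 missed the threshold (limma adjusted p = 0.502). IL17RA, the common subunit of interleukin-17 receptors, stood at 8.07 and 8.47 in DEL and 6.61 to 7.13 elsewhere (1.36, limma adjusted p = 0.185), and OSMR, the oncostatin M receptor, at 9.91 and 10.08 against 8.98 to 9.17 (0.87, limma adjusted p = 0.185). IL10RA, the interleukin-10 receptor, was among the 4 below, at 4.82 and 4.57 against 5.79 to 6.46 (-1.37, limma adjusted p = 0.229).

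Of 56 chemokines and their receptors, 4 lay above (7.14%, against 9.53% of all genes) and 9 below (16.1%, against 13.5%). No member was called (2 higher and 3 lower at an unadjusted p under 0.05, limma). CCL20, which attracts cells with the receptor CCR6, stood at 8.63 and 8.58 in DEL, 7.49 and 5.91 in Karpas299 and 3.32 and 3.48 in SUPM2 (3.56, limma adjusted p = 0.56). CXCL8, the neutrophil attractant interleukin-8, stood at 8.04 and 6.61 in DEL against 5.28 to 5.57 (1.94, limma adjusted p = 0.17). CXCR4, the receptor for CXCL12, stood at 5.24 and 4.20 in DEL, 7.71 and 7.64 in Karpas299 and 6.13 and 6.29 in SUPM2 (-2.22, limma adjusted p = 0.40). DEL was therefore the brightest line for both of these chemokines and the dimmest for CXCR4, and none of the 3 was called. In the TNF superfamily, 11 of 41 lay below (26.8%, against 13.5% of all genes) and 3 above, with a median of -0.15. TNFRSF14, the HVEM receptor, was below at 5.80 and 5.83 against 6.22 to 6.43 (-0.52, limma adjusted p = 0.44), and above was TNFRSF18, the GITR receptor, at 7.32 and 7.41 against 6.17 to 6.54 (0.97, limma adjusted p = 0.229).

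Proteases of the matrix and the lysosome had 13 of 47 measured genes above the other lines (27.7%, against 9.53% of all genes) and 6 below, with a median of -0.01. PLAT, the tissue-type plasminogen activator, was called higher at 9.88 and 9.60 in DEL, 6.22 and 5.96 in Karpas299 and 6.84 and 6.55 in SUPM2 (3.35, SE 0.27, limma adjusted p = 0.0264). PLAUR, the receptor of the urokinase activator, stood at 11.27 and 11.24 in DEL, 8.93 and 9.35 in Karpas299 and 6.83 and 7.34 in SUPM2. All DEL values were above the others, but the difference of 3.14 missed the threshold (limma adjusted p = 0.359). SERPINE2, an inhibitor of thrombin and plasminogen activators, was called higher at 6.77 and 7.07 in DEL and 3.31 to 4.04 elsewhere (3.31, limma adjusted p = 0.0217). Cathepsins stood on both sides of the other lines. CTSB stood at 11.01 and 11.08 against 10.04 to 10.48 (0.75, limma adjusted p = 0.344), while CTSS, a cathepsin of antigen presentation, stood at 5.42 and 4.77 against 6.11 to 7.96 (-2.15, limma adjusted p = 0.271). TIMP4, a metalloprotease inhibitor, stood at 4.05 and 5.33 in DEL, 7.66 and 7.55 in Karpas299 and 8.49 and 8.35 in SUPM2 (-3.32, limma adjusted p = 0.0999).

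Among 43 integrins, selectins and adhesion ligands, 9 lay above (20.9%, against 9.53% of all genes) and 7 below (16.3%, against 13.5%). Of the 43, 1 (ITGB3) was called higher and 0 lower, with 6 higher and 4 lower at an unadjusted p under 0.05 (limma). ALCAM, the ligand of CD6, stood at 10.06 and 10.44 in DEL, 5.86 and 5.52 in Karpas299 and 7.32 and 8.23 in SUPM2 (3.52, limma adjusted p = 0.328). ITGA5, a fibronectin receptor subunit, stood at 7.60 and 7.54 in DEL against 5.29 to 6.67 (1.57, limma adjusted p = 0.427). Leukocyte integrin subunits lay on both sides: ITGAL was below at 5.74 and 5.19 against 5.88 to 7.20, as was ITGAM at 4.66 and 4.29 against 4.88 to 5.21. ITGAE was above at 7.03 and 5.82 against 4.61 to 5.33, as was ITGB7 at 8.05 and 6.53 against 5.26 to 5.97, and none of these 4 was called. Annexins, S100 proteins and galectins had 8 of 36 above (22.2%) and 2 below, with a median of 0.15. S100A8, a calcium-binding protein of myeloid cells, stood at 6.26 in DEL SP and 8.68 in DEL MP, with 1 array each. It was at 5.81 and 5.89 in Karpas299 and 3.83 and 3.27 in SUPM2. Its difference from the other lines was 2.77 (limma adjusted p = 0.578), and its interaction with population was not called.

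**Figure D4:**
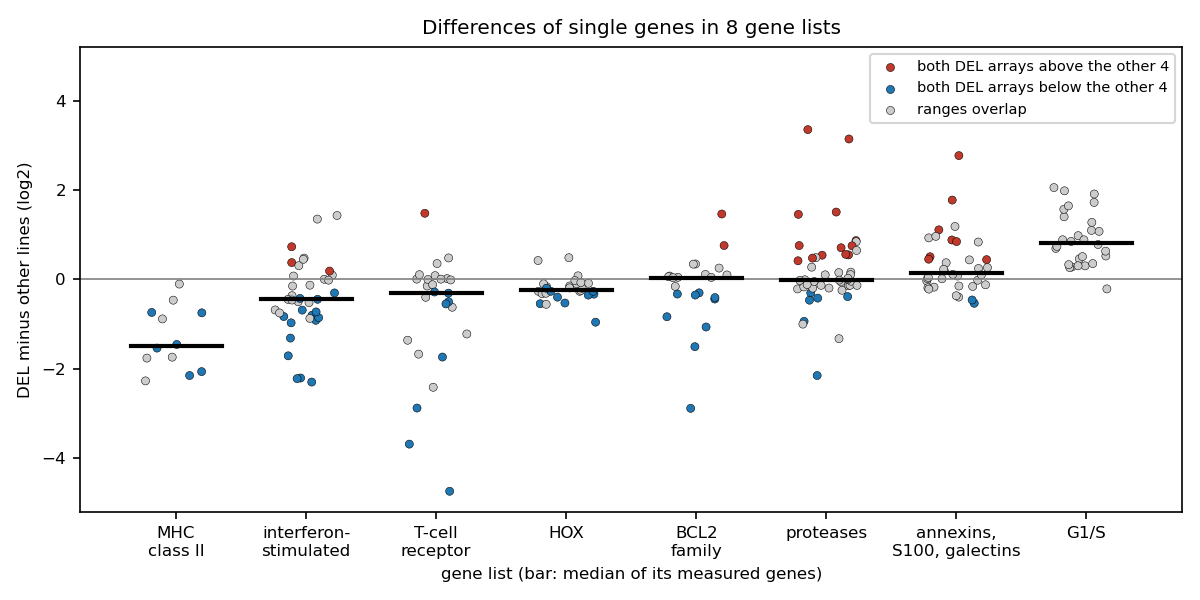
Difference of DEL from the other lines (log2, vertical axis) for each measured gene of 8 lists (horizontal axis), red where both DEL arrays lie above the other 4, blue where both lie below, grey where ranges overlap, with a bar at each list's median. All 12 MHC class II genes lie below 0 with a median of -1.50, the BCL2 and T-cell receptor lists have long lower tails, and no G1/S gene is coloured.

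Detoxifying enzymes split in both directions. Of 36 glutathione and xenobiotic genes, 7 lay above (19.4%, against 9.53% of all genes) and 6 below (16.7%, against 13.5%). Among them 1 was called higher (MGST1) and 0 lower. HMOX1, which breaks down haem, stood at 12.30 and 11.43 in DEL, at 9.56 and 9.37 in SUPM2 and lower still in Karpas299 (8.18 in MP), with no overlap (3.09, limma adjusted p = 0.226). GSTM1, a cytosolic glutathione transferase, stood at 6.38 and 5.43 in DEL, 9.65 and 10.03 in Karpas299 and 8.32 and 8.21 in SUPM2 (-3.15, limma adjusted p = 0.268), and GSTT1, of another transferase class, at 6.32 and 6.20 against 4.75 to 5.19 (1.28, limma adjusted p = 0.0851). Transferases thus stood on both sides. GSTM family members resemble each other closely in sequence, which makes the GSTM1 value uncertain. Serine synthesis and ATF4 target genes had 5 of 28 above (17.9%) and 0 below, with a median of 0.10 and PHGDH as the 1 call. VLDLR, a lipoprotein receptor, stood at 8.32 and 8.11 in DEL and 6.00 to 7.09 elsewhere (1.70, limma adjusted p = 0.24). Among 31 glycolysis and hypoxia genes, 3 lay above (9.68%) and 3 below (9.68%), and EGLN3 was the 1 call. EGLN3 stood at 7.79 and 7.78 in DEL and 5.38 to 5.70 elsewhere. Of 26 sterol and fatty acid synthesis genes, 2 lay above (7.69%) and 7 below (26.9%), with a median of -0.21.

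In the BCL2 family, which sets the threshold for apoptosis, 9 of 22 genes lay below the other lines (40.9%, against 13.5% of all genes) and 2 above, and 0 were called (2 higher and 4 lower at an unadjusted p under 0.05, limma). BNIP3, a mitochondrial death and mitophagy protein, stood at 6.57 and 7.38 in DEL, 9.51 and 9.43 in Karpas299 and 10.24 and 10.27 in SUPM2 (-2.89, limma adjusted p = 0.0966). PMAIP1, the death promoter NOXA, stood at 8.56 and 8.21 in DEL against 9.06 to 10.54 (-1.51, limma adjusted p = 0.488), and its target MCL1, a survival protein, at 10.09 and 9.46 against 10.59 to 11.23 (-1.07, limma adjusted p = 0.313). The 2 above were BID, a death promoter activated by caspase cleavage, at 7.64 and 7.71 against 5.95 to 6.59 (1.46, limma adjusted p = 0.185), and BCL2L1, which encodes the survival protein BCL-XL, at 7.63 and 7.20 against 6.52 to 6.88 (0.76, limma adjusted p = 0.40). The other genes below were BAD, BBC3, BCL2L10, BCL2L11, BNIP3L and BOK. Most of the 9 below are known as promoters of death, while the 2 above hold a promoter and a survival protein. The list median was 0.04, but it was -0.06 against Karpas299 and -0.20 against SUPM2.

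Of 40 lymphoid transcription factors, 5 lay above (12.5%, against 9.53% of all genes) and 5 below (12.5%, against 13.5%). No member was called (3 higher and 2 lower at an unadjusted p under 0.05, limma). ETS1, a factor of T-cell development, stood at 10.02 and 10.16 in DEL and 8.37 to 8.84 elsewhere (1.43, limma adjusted p = 0.0935). IRF8, a factor of myeloid and B cells, stood at 7.12 and 7.65 in DEL, 5.75 and 5.89 in Karpas299 and 4.42 and 4.30 in SUPM2 (2.29, limma adjusted p = 0.36). BATF, an AP-1 partner, stood at 8.52 and 8.34 against 8.97 to 9.77 (-0.96, limma adjusted p = 0.38). HOX cluster genes had 9 of 27 below (33.3%, against 13.5% of all genes) and 0 above, with a median of -0.25 and 0 called (1 lower at an unadjusted p under 0.05, limma). HOXB7 stood at 5.78 and 5.62 in DEL, 6.84 and 6.88 in Karpas299 and 6.46 and 6.45 in SUPM2 (-0.96, limma adjusted p = 0.30). The other 8 HOX genes below had differences from -0.55 to -0.20 and small gaps, from 0.02 to 0.29. The list was dim, with means of 4.96 and 4.90 in DEL and 5.10 to 5.26 elsewhere, under the median gene (5.81).

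Proliferation genes of the G1/S list placed DEL between the other lines by their mean. Of 28 G1/S genes, 0 lay outside the range of the other arrays and 0 were called, with 0 at an unadjusted p under 0.05 (limma). The mean over the list was 8.25 and 8.91 in DEL, 8.67 and 9.06 in Karpas299 and 6.67 and 6.31 in SUPM2. Its median difference was 0.81 against both lines, -0.35 against Karpas299 and 1.93 against SUPM2, with 17 genes called higher against SUPM2 and 0 against Karpas299. With 1 array left out, the median was 0.48 without DEL MP, 0.40 without SUPM2 SP, 0.20 without SUPM2 MP, 1.24 without Karpas299 SP and 1.36 without Karpas299 MP. The direction against both lines together was therefore set by SUPM2. Of 37 G2/M genes, 0 lay above and 1 below (2.7%), with a median of -0.10. Their list mean was 8.41 and 8.14 in DEL, 9.12 and 8.67 in Karpas299 and 8.47 and 7.34 in SUPM2. By this mean DEL was the lowest line in SP, close to SUPM2, and between the other lines in MP. The dye pump ABCG2 lay inside the range of the other lines and ABCB1 just below it: ABCG2 stood at 5.87 and 4.65 in DEL, 6.49 and 6.86 in Karpas299 and 4.49 and 4.19 in SUPM2, and ABCB1 at 3.33 and 3.06 against 3.44 to 4.01.

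Marker lists of other lineages were read against the shares over all genes, 9.53% above and 13.5% below. Of 13 B-cell markers, 0 lay above and 2 below (15.4%), and the list mean was 4.70 and 4.51 in DEL against 4.77 to 4.97. Of 10 erythroid and platelet markers, 0 lay above and 2 below (20%), with means of 4.88 and 4.81 against 4.83 to 5.32. Of 16 stromal and epithelial markers, 2 lay above (12.5%) and 1 below (6.25%), with means of 4.82 on both arrays against 4.61 to 4.90. Of these 3 lists, 0 genes were called in either direction, with 1 stromal gene higher at an unadjusted p under 0.05 (limma).

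The difference of DEL from the other lines was compared between SP and MP cells. The interaction of DEL with population had 0 of 18417 genes called (0%) with limma, 166 at an unadjusted p under 0.05, and 0 with limma's robust trended variance. GTSF1, a factor of small RNA pathways, had the smallest p-value, and stood at 7.47 in DEL SP and 3.80 in DEL MP against 9.80 to 10.20 elsewhere. It was below the other lines in both populations, with differences of -2.53 in SP and -6.29 in MP. The model had 1 DEL array per population, so a missed threshold does not show that the populations differed from the other lines by the same amount.

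Genes outside the range of the other lines were unevenly spread over chromosomes. On chromosome 18, 62 of 264 measured genes lay below (23.5%) and 11 above (4.17%), with a median difference of -0.21. On chromosome 19, 20.3% lay below and 5.35% above. Chromosomes 18 and 19 had the highest shares below, and the share over all genes was 13.5%. On chromosome 5, 132 of 783 genes lay above (16.9%, against 9.53% of all genes), and chromosomes 4 and 10 had 14.5% and 14.3% above. Among genes at or above the median signal, a restriction added after the data were seen, 29.8% of 114 genes on chromosome 18 lay below (10.8% of all such genes), and 24.6% on chromosome 5 lay above (13.4% of all such genes).

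**Figure D5:**
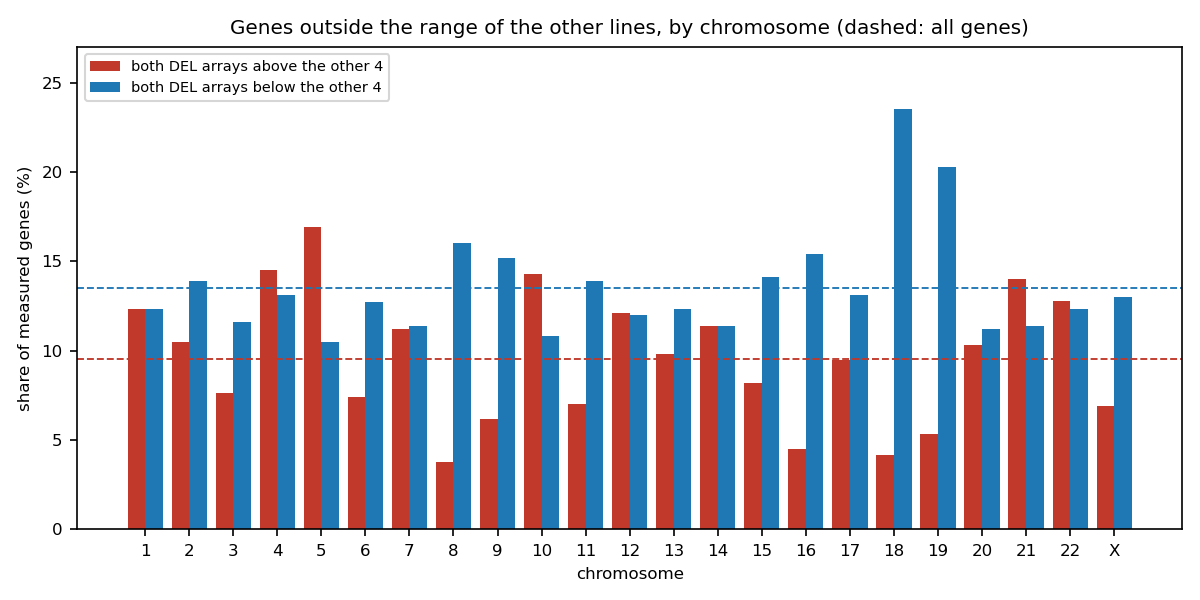
Share of measured genes (percent, vertical axis) with both DEL arrays above (red) or below (blue) the other 4 arrays, for each chromosome (horizontal axis), with dashed lines at the shares over all genes (9.53% and 13.5%). Chromosome 18 has the tallest blue bar (23.5%) and chromosome 5 the tallest red bar (16.9%).

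Neighbouring genes sometimes stood apart together. A run was taken as 4 or more consecutive measured genes with both DEL arrays on the same side, and there were 7 such runs above and 12 below, with no run of more than 5 genes. The run of 5 above held UGDH, SMIM14, UBE2K, PDS5A and N4BP2 on chromosome 4, with a median difference of 0.82. SMYD3, TFB2M, CNST and SCCPDH on chromosome 1 formed a run of 4, with a median difference of 1.15. Another on chromosome 1 held TAF1A, MIA3, AIDA and BROX, with a median of 1.10. Below, FURIN, FES, MAN2A2, HDDC3 and UNC45A on chromosome 15 had a median difference of -0.61. GET3, BEST2, HOOK2, JUNB and PRDX2 on chromosome 19 and IER3IP1, SKOR2, SMAD2, ZBTB7C and ZBTB7C-AS2 on chromosome 18 were the next runs of 5 below. HLA-DOA, HLA-DPA1, HLA-DPB1 and HLA-DPB2 on chromosome 6 were neighbours in a run of 4. Probe sets of these HLA genes may share signal. Over all genes 9.53% lay above and 13.5% below, so some runs can occur without a link between neighbours, and their number was not estimated. Gaps were small in some runs, with a median of 0.06 in 1 run below on chromosome 8. No test was made of these runs, and copy number was not measured.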

How the data were processed

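RNA of sorted cells was extracted, amplified as whole transcripts, labelled with biotin and hybridised to arrays of 33297 probe sets, per the labels' protocols. The deposited values are log2 signals, which the authors made with RMA per the submitters' processing notes. RMA pulls arrays to 1 distribution, and joint normalization of all arrays is not stated in the sources. The platform table gave 1 symbol for 19460 probe sets, several for 1754 and none for 12083. Of the first, 19429 matched RefSeq (GRCh38.p14). Where 769 genes had several probe sets, the brightest on average over these 6 arrays was used, leaving 18417 genes. Arrays carry no read depth.

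Groups came from sample titles. With limma 3.58.1 (lmFit, eBayes, R 4.3.3), values were fitted on population and DEL (3 residual degrees of freedom), on line and population (2), and with the interaction of DEL and population. Tests were two-sided, with Benjamini-Hochberg adjustment over all genes. The fits were run on simulated data with known changes. Those data had independent errors and no difference between Karpas299 and SUPM2, so they cannot show how many false calls such a difference gives. Named were the called genes with the widest gaps, up to 15 in each direction, up to 4 by gap and 2 inside the range from each described list (29 of 44), and a few lineage genes; other genes named were chosen after their values were seen. Members and lists were chosen with earlier results of these data known. Of the called genes, 1 is not named here. Alternatives covered dim genes, scaling, probe sets, variance, and lines or arrays left out.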

Additional observations from a re-analysis of the deposited data

Results flagged for a closer look

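Among the 4 Karpas299 and SUPM2 arrays, Dixon's test was applied to 174 named genes, and 1 array stood far from the other 3 in 6 of them. Chance sets apart about 1 in 20 groups. IGFBP7 was at 5.08 in SUPM2 MP, against 6.19 to 6.27 on the other 3, and is called higher in DEL. CD6, the receptor for ALCAM, was at 6.33 in SUPM2 SP against 5.40 to 5.44. CD226, an activating receptor, was at 10.29 in Karpas299 MP against 8.95 to 9.14. JAK3, a kinase of cytokine receptors, was at 8.80 in SUPM2 MP against 8.26 to 8.31. OSMR was at 8.98 in SUPM2 SP against 9.15 to 9.17. HOXB3 was at 6.22 in Karpas299 SP against 5.57 to 5.64.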

How the results depend on the processing

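The values rest on 1 line with 2 arrays. No paired analysis was possible because the lines compared carry no replicate numbers in the labels, with 1 array per line and population. Of 348 list medians under the alternatives, 46 moved by more than the spread between arrays, and 0 results reversed among called values. The counts of called genes (50 higher, 5 lower) were within 1.5 times under the other scalings, the filter on dim genes, probe set averages, robust variance and a 2-fold limit. They were 257 and 123 without Karpas299 and 407 and 313 without SUPM2, 303 and 186 with the spread within lines only, 85 and 25 with no population term, 30 and 2 with line as a random block (correlation 0.261), and 0 and 0 with line averages. With SP arrays only or MP arrays only, both added after the data were seen, they were 0 and 0. Leaving out 1 array gave 0 to 14 higher and 0 to 1 lower. The counts above and below the other arrays (1756 and 2483) were 399 and 165 at a gap of at least 0.5, 142 and 48 at a gap of at least 1, 3992 and 5836 without Karpas299, 3930 and 5106 without SUPM2, and 2173 to 3192 and 2939 to 5147 with 1 array left out. These last counts compare fewer arrays.

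List medians moved as follows. With the dimmest 25% of genes left out, they were 0.22 for cytokine receptors, 0.03 for protease inhibitors, 0.13 for proteases and 0.27 for glutathione enzymes. After quantile normalization they were -0.13 for the TNF superfamily, -0.06 for MHC class I and -0.09 for integrins, and after centring -0.12 for the TNF superfamily and 0.01 for MHC class I. Without Karpas299 they were -0.13 for the TNF superfamily, -0.56 for MHC class II, -0.13 for MHC class I, -0.30 for interferon-stimulated genes, -0.20 for the BCL2 family, -0.08 for integrins, -0.07 for protease inhibitors and 0.02 for annexins. Without SUPM2 they were -0.11 for the TNF superfamily, -0.23 for MHC class I, -0.17 for HOX genes, -0.06 for the BCL2 family, -0.06 for integrins, -0.06 for protease inhibitors and 0.29 for annexins. With 1 array left out, the medians ran from -0.16 to -0.08 for the TNF superfamily, -0.11 to 0.07 for MHC class I, -0.54 to -0.24 for interferon-stimulated genes, -0.23 to -0.09 for B-cell markers, -0.14 to 0.06 for the BCL2 family, -0.20 to -0.03 for integrins, -0.14 to -0.04 for protease inhibitors and 0.08 to 0.30 for annexins. The cause was not tested.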

Other observations

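The end of the long arm of chromosome 1, from SMYD3 to NLRP3, was looked at after its values were seen. Both border genes lay above the other lines themselves, so the shares given here follow in part from where the region was cut. Of 12 measured genes, 9 lay above the other lines (75%, against 12.3% on chromosome 1 and 9.53% of all genes) and 0 below. Of these, 3 were called higher (ZNF670, ZNF124 and NLRP3, against 0.271% of all genes), and the median difference was 1.15. ZNF670, a zinc finger protein gene, stood at 5.34 and 5.59 in DEL and 2.83 to 3.31 elsewhere, 2.44 higher (limma adjusted p = 0.0264). ZNF124 stood at 7.15 and 6.52 in DEL and 4.78 to 5.19 elsewhere, 1.85 higher (limma adjusted p = 0.0476, not read singly with line as a random block). The 3 genes that did not stand apart, LINC01341, LINC02897 and VN1R5, lay inside the range of the other lines.

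SNORD116 small nucleolar RNAs, a cluster of near-identical copies from the imprinted Prader-Willi region, were also chosen after their values were seen. Of 20 measured copies, 5 lay above and 3 below, and 0 were called with limma. Over all genes, 9.53% lay above and 13.5% below. SNORD116-14 stood at 7.83 in DEL SP and 8.81 in DEL MP, 4.91 and 4.56 in Karpas299 and 2.93 and 2.82 in SUPM2. SNORD116-21 stood at 7.78 and 8.31 in DEL, 4.97 and 5.76 in Karpas299 and 2.60 and 2.66 in SUPM2. SNORD116-6 went the other way, at 5.81 and 6.58 in DEL against 7.34 to 9.52. The copies are so alike that probe sets may share signal, and single values are uncertain.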
